A study of Mus musculus with 18 samples.

Results

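The Hmgb and Hmgn architectural proteins were examined as 7 genes, Hmgb1, Hmgb2, Hmgb3, Hmgn1, Hmgn2, Hmgn3 and Hmgn5, chosen by gene symbol from the 45706 genes of a mouse RNA sequencing table, to ask whether their RNA differs when Hmga2 is knocked out. All 7 passed the filter on low counts, with 16619 genes tested in all. The cells were induced pluripotent stem cells (iPSCs), grown on mitotically inactivated fibroblast feeders with leukaemia inhibitory factor and inhibitors of MEK and GSK3, and then moved to a basement membrane matrix with Activin A and bFGF to become epiblast-like cells (EpiLCs). The lines sequenced were Hmga2 wt cells, which came from a single clone, and a pair of Hmga2 KO clones named KO#1 and KO#2. Each line was sampled before induction (0 h) and after 24 h, with 3 biological replicates in each of the 6 groups, so that 18 libraries were available. With 1 clone of wt and 1 clone behind each KO group, a clone and its genotype cannot be told apart.

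High-mobility-group proteins are abundant non-histone proteins of chromatin. The Hmgb proteins bend DNA through their HMG boxes, and they help transcription factors and remodelling complexes to reach their sites. The Hmgn proteins bind inside the nucleosome and loosen compact chromatin, in competition with linker histone H1. Hmga1 and Hmga2, the remaining family, bind AT-rich DNA through AT hooks. Hmgb1, Hmgb2, Hmgn1 and Hmgn2 are known to be strongly expressed in embryonic and dividing cells, and several of these genes have spread many processed copies through the mouse genome.

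The coding sequence of each gene was compared with all transcripts of the GENCODE M21 annotation of GRCm38, and a gene whose transcript matched at 95% identity or more over 200 bases or more was taken as a near-identical copy. There were 30 such copies of Hmgb1, 9 of Hmgn2, 4 each of Hmgb2 and Hmgn1, 1 each of Hmgb3 and Hmgn5, and 0 of Hmgn3. The coding sequence of Hmgn2 (GRCm38 chr4:133964738-133968650, minus strand) is shown because the annotation holds it without a single difference in a pair of other genes, Gm10182 (chr9:22321105-22321377, minus strand, a processed pseudogene) and Gm10282 (chr8:72304110-72305260, minus strand, annotated as protein coding). Its 273 bases, from start to stop codon, 5′ to 3′, are:
Hmgn2, Gm10182 and Gm10282: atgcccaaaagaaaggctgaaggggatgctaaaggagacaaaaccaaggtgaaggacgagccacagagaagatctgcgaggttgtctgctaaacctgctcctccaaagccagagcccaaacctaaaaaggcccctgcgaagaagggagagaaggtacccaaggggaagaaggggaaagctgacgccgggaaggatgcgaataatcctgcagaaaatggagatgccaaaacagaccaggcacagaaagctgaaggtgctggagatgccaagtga

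Hmgb1 (chr5:149046702-149184489, minus strand) differs from its processed pseudogenes Gm21596 (chr2:113919247-113920562, minus strand) and Gm15387 (chr15:74093686-74094333, minus strand) by a single base in 648 coding bases, the same one in both copies. It is A21G, counted from 1 at the first base of the start codon, with the base of Hmgb1 first. The first 51 coding bases are given with that base in capitals:
Hmgb1: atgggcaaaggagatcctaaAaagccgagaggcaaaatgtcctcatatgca
Gm21596: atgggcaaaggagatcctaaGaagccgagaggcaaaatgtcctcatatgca
Gm15387: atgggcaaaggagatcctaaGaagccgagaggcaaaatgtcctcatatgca

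The libraries held 3466436 to 23872837 counts. The share of counts in protein-coding genes ran from 76.3% to 84.7% in the KO#2-labelled libraries, above the 41.3% to 77.4% of the other libraries apart from 1 KO#1 library at 0 h. Malat1, a nuclear noncoding RNA, stood at 7155 to 9434 CPM (counts scaled to a common library size) in the KO#2-labelled libraries at 0 h and at 808 to 1885 CPM in wt and KO#1, and at 24 h at 1682 to 2869 CPM against 227 to 520.0 CPM. Hmga2, the targeted gene, had 13.3 to 22.4 CPM in wt at 0 h, 1.75 to 10.2 in KO#1 and 1.84 to 8.25 in the KO#2-labelled libraries. At 24 h it had 5.51 to 5.93 CPM in wt, 0.871 to 3.68 in KO#1 and 3.02 to 10.5 in the KO#2-labelled libraries. The difference from wt did not pass the test in KO#1 at 0 h (-1.71, adjusted p = 0.124, edgeR) or 24 h (-1.36, 0.22). Hmga2 was called lower in KO#1 in 2 of 15 alternatives at 0 h and 1 of 15 at 24 h. At both times this held with no filter on low counts (-1.71, adjusted p = 0.000524, and -1.35, 0.0123, edgeR). In the libraries labelled KO#2 it was called lower at 0 h (-1.90, adjusted p = 0.023, edgeR) and in 11 of 15 alternatives. The call was lost with library sizes alone (-1.44, adjusted p = 0.0583, edgeR) and on leaving out wt replicate 3, KO#2 replicate 1 or KO#2 replicate 2 (adjusted p up to 0.0863, edgeR). At 24 h 1 of these libraries, replicate 1 with 10.5 CPM, went against its label and the other two lay below all wt libraries, and the group did not pass the test against wt, with -0.04 and a 95% interval of -1.31 to 1.23 (adjusted p = 0.966, edgeR). Reads outside a deleted part of the gene would still be counted, and the deleted part is not given in the sources used here. Of the 24 h libraries, KO#2 replicate 1 also had the highest mean log2 CPM of feeder fibroblast markers (4.145). The part of either in the Hmga2 counts was not tested. The paper also examined Hmga2 protein in wt and KO cells by western blot, whereas the values above are of RNA alone. The libraries labelled KO#2 are called KO#2-labelled from here on. Mean log2 CPM of 10 naive pluripotency markers fell within 7.01 to 7.60 at 0 h, and at 24 h it was 3.36 to 3.55 in wt, 4.44 to 4.71 in KO#1 and 3.81 to 5.13 in the KO#2-labelled libraries. That of 7 EpiLC markers fell within 1.45 to 2.46 at 0 h, and at 24 h it was 6.10 to 6.84 in wt, 4.47 to 5.56 in KO#1 and 4.72 to 5.997 in the KO#2-labelled libraries. After 24 h every KO library thus lay above all wt libraries for the naive markers and below them for the EpiLC markers. For 5 primitive endoderm markers it fell within -0.80 to 0.08 at 0 h, and at 24 h it was -1.72 to -1.15 in wt, -1.19 to 0.38 in KO#1 and 0.72 to 1.43 in the KO#2-labelled libraries. For 4 general pluripotency markers it was 8.14 to 8.40 in wt, 7.21 to 7.67 in KO#1 and 6.77 to 7.35 in the KO#2-labelled libraries at 0 h, and 7.77 to 8.39 in all 9 libraries at 24 h. The part of these marker differences in the results that follow was not tested. Mean log2 CPM of 8 feeder fibroblast markers was 2.72 to 4.08 in wt, 3.44 to 4.84 in KO#1 and 4.67 to 6.12 in the KO#2-labelled libraries at 0 h, and 1.197 to 2.03, 1.71 to 2.50 and 2.91 to 4.14 at 24 h. In bulk RNA, fewer cells of a type and less RNA per cell cannot be told apart.

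The 7 genes fell into an abundant and a scarce set. Per kb of exonic length, in wt iPSCs at 0 h, Hmgb2 had the highest level, 67.9 ± 13.6 CPM per kb (SD, n = 3), followed by Hmgn1 with 65.7 ± 10.4, Hmgn2 with 36.0 ± 6.29 and Hmgb1 with 34.3 ± 10.2. Hmgb3 had 7.40 ± 0.724 CPM per kb, Hmgn5 0.364 ± 0.323 and Hmgn3 0.211 ± 0.122. Hmgb2 and Hmgn1 did not differ beyond their SD, nor did Hmgn2 and Hmgb1, nor Hmgn5 and Hmgn3. In wt at 24 h the order was Hmgn1 with 177 ± 23.3 CPM per kb, Hmgb2 with 162 ± 57.5, Hmgb1 with 114 ± 39.8 and Hmgn2 with 103 ± 9.65, where neighbours again lay within their SD. In the KO#2-labelled libraries at 24 h, Hmgn1 stood at 104 ± 24.7 CPM per kb and Hmgn2 at 20.6 ± 6.94. Hmgn2 lay below Hmgn1 by more than both SDs there, as it did in wt at both times.

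**Figure D1:**
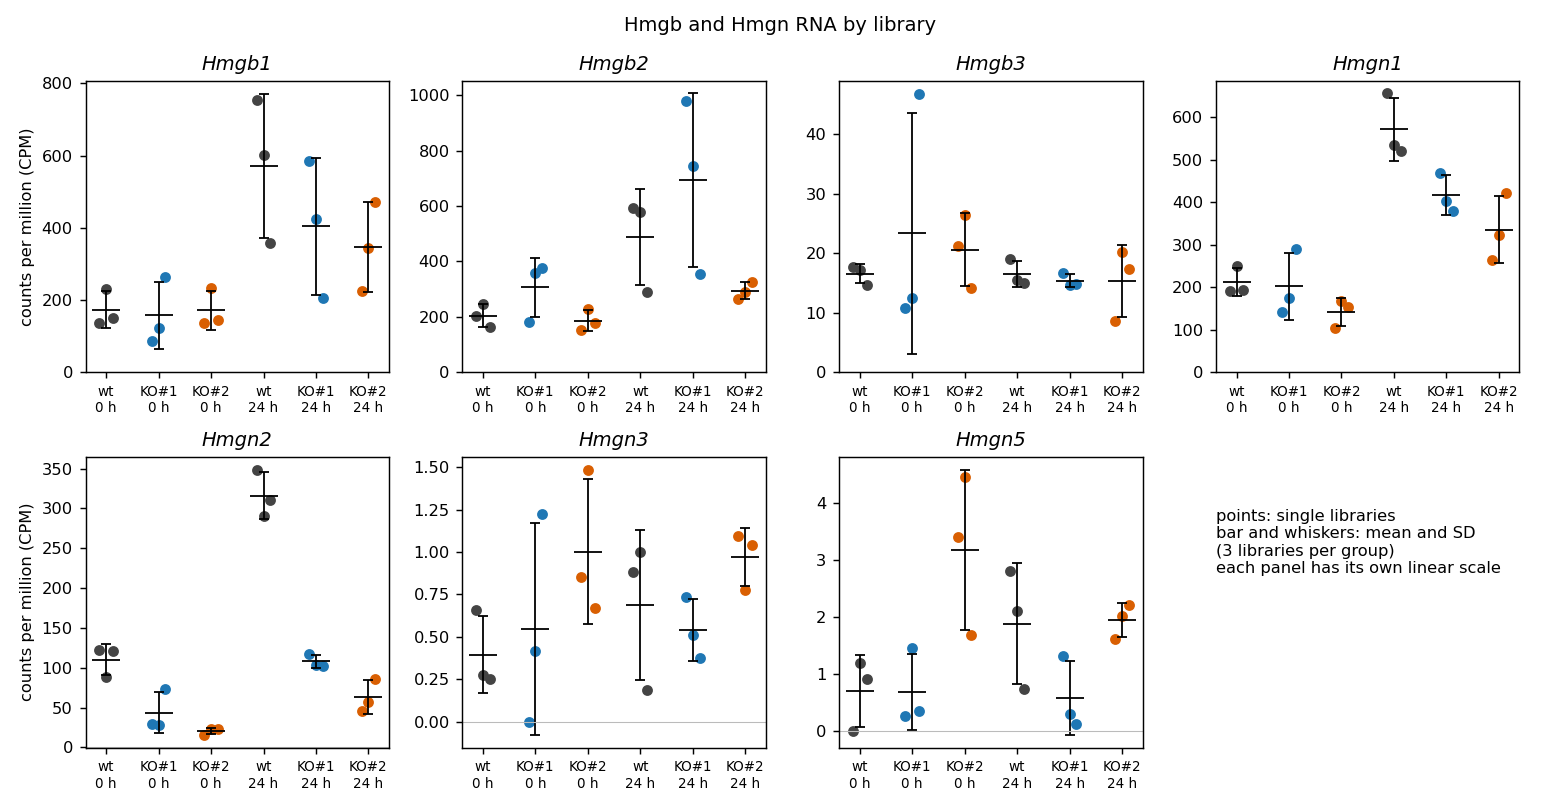
Level of each Hmgb and Hmgn gene in CPM (linear vertical axis, a scale of its own in each panel) in the 6 groups. Points are single libraries, and the bar and whiskers are mean and SD over 3 libraries; Hmgn2 is the one gene for which both KO groups lie below wt at both times without overlap.

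Hmgn2, a nucleosome-binding protein of dividing and embryonic cells, was lower in both KO clones at both times. At 0 h the wt libraries had 122, 88.0 and 121 CPM, the KO#1 libraries 28.9, 28.4 and 73.9 CPM, and the KO#2-labelled libraries 16.2, 22.8 and 23.1 CPM. At 24 h the wt libraries had 348, 290.1 and 310.1 CPM, the KO#1 libraries 117, 104 and 103 CPM, and the KO#2-labelled libraries 45.1, 57.3 and 86.4 CPM. No KO library reached the lowest wt library of its time, while groups did not overlap for 20.5% of all genes tested in KO#1 and 52.9% in the KO#2-labelled libraries at 0 h, and for 29.1% and 52.1% at 24 h. In KO#1 the level of Hmgn2 was 0.40 times that of wt at 0 h, a log2 fold change of -1.32 ± 0.33 (SE, adjusted p = 0.0188, edgeR), and 0.341 times at 24 h, -1.55 ± 0.33 (adjusted p = 0.00426, edgeR). In the KO#2-labelled libraries it was 0.188 times that of wt at 0 h, -2.41 ± 0.34 (adjusted p = 9.43e-05, edgeR), and 0.199 times at 24 h, -2.33 ± 0.34 (adjusted p = 7.13e-05, edgeR). Hmgn2 was the only member called lower in KO#1 at either time, 1 of 7, where 2.68% of all genes tested were called lower at 0 h and 3.61% at 24 h. It was also the only member called in the KO#2-labelled libraries at 0 h, 1 of 7 against 16.6% of all genes called lower. The Malat1 values given above set the KO#2-labelled libraries apart from the rest of each time, while at 0 h their fibroblast marker and coding share values overlapped with those of KO#1. At 24 h neither overlapped with wt or KO#1, and the coding share was 82.3% to 84.7% against 41.3% to 63.4%. The part of these in the Hmgn2 difference was not tested. The KO#1 call at 0 h was lost when wt replicate 1 (adjusted p = 0.0585, edgeR), wt replicate 3 (0.0765), KO#1 replicate 1 (0.0859) or KO#1 replicate 2 (0.0911) was left out, and with library sizes alone (-1.16, 0.0796). It was also lost with only the compared groups in the model (-1.33, adjusted p = 0.105, edgeR).

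An identical copy of Hmgn2 had the opposite pattern. Gm10182, whose 273 bases are those printed above, had 2, 9 and 10 counts in the wt libraries at 0 h, against 186, 77 and 1000 counts in KO#1 and 276, 312 and 360 counts in the KO#2-labelled libraries. At 24 h it had 31, 13 and 27 counts in wt, 1071, 723 and 1133 counts in KO#1 and 656, 1031 and 1289 counts in the KO#2-labelled libraries. Every KO library lay above every wt library of its time. Among all genes tested, 3.99% were called higher in KO#1 at 0 h and 6.25% at 24 h, and 21.5% and 21.3% with KO#2. On the log2 scale Gm10182 was higher by 5.36 ± 0.46 in KO#1 at 0 h (adjusted p = 3.48e-07, edgeR) and by 5.52 ± 0.42 at 24 h (adjusted p = 7.67e-08, edgeR). It was higher by 4.13 ± 0.45 in the KO#2-labelled libraries at 0 h (adjusted p = 7.21e-06, edgeR) and by 4.74 ± 0.40 at 24 h (adjusted p = 3.93e-07, edgeR). Gm10282, the other identical copy, had 3.05 ± 0.931 CPM (SD, n = 3) in wt at 0 h, 9.07 ± 9.23 in KO#1 and 6.19 ± 1.40 in the KO#2-labelled libraries, and 9.57 ± 1.44, 23.0 ± 2.80 and 20.9 ± 7.68 CPM at 24 h. None of its 4 differences from wt passed the test (adjusted p = 0.0614 to 0.115, edgeR).

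Set beside the gene itself, the 9 copies of Hmgn2 held 3.79% to 6.55% of the summed counts of gene and copies in wt at 0 h and 3.39% to 4.17% at 24 h. In KO#1 they held 42.4% to 51.9% at 0 h and 47.3% to 48.8% at 24 h, and in the KO#2-labelled libraries 48.0% to 51.8% and 50.4% to 53.1%. About as many counts thus lay on the copies as on Hmgn2 in every KO library, and few in every wt library. With the counts of the copies added to the gene, the mean was 116 ± 20.9 CPM in wt at 0 h, 86.8 ± 58.1 in KO#1 and 41.4 ± 8.0 in the KO#2-labelled libraries. After 24 h the sum was 328 ± 29.9, 208 ± 15.5 and 129 ± 40.8 CPM. The summed level remained lower than wt in the KO#2-labelled libraries, with a log2 fold change of -1.49 ± 0.35 at 0 h (adjusted p = 0.00384, edgeR) and -1.35 ± 0.35 at 24 h (adjusted p = 0.00559, edgeR). In KO#1 the summed difference did not pass the test at 0 h, -0.41 with a 95% interval of -1.13 to 0.31 (adjusted p = 0.553, edgeR), nor at 24 h, -0.66 with an interval of -1.38 to 0.05 (adjusted p = 0.271, edgeR). In KO#1 the call on Hmgn2 was thus made for the gene alone and not for gene and copies together. How the authors' counting treated reads that match several genes is not given in the sources used here, and whether the copies are transcribed in the KO lines was not tested.

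**Figure D2:**
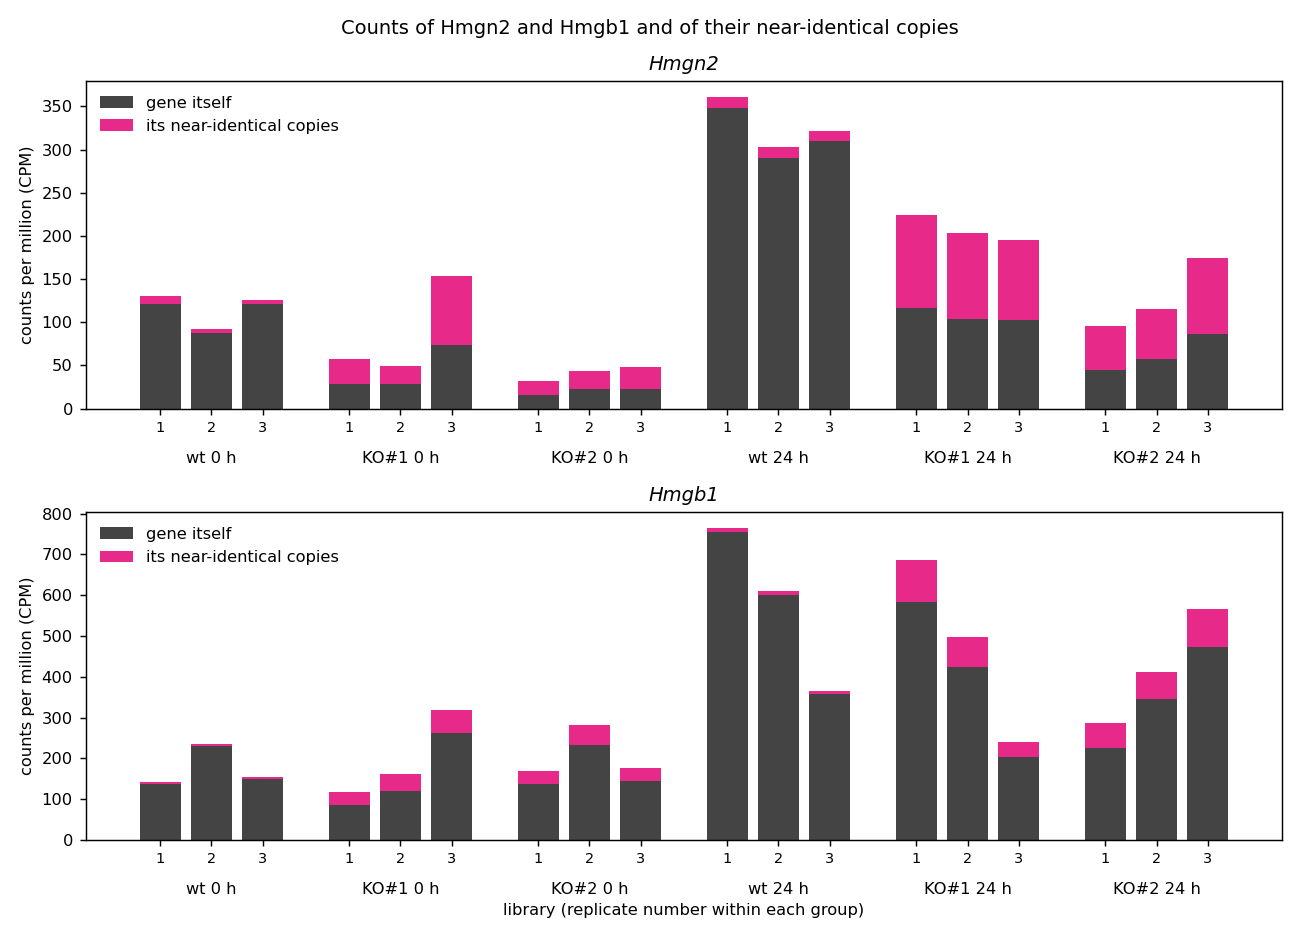
Stacked bars of CPM in each library, with the gene itself in grey and the sum of its near-identical copies in pink, for Hmgn2 above and Hmgb1 below (bars start at 0, replicates 1 to 3 in each group). The pink part of Hmgn2 is 3.39% to 6.55% of the bar in wt libraries and 42.4% to 53.1% in KO libraries.

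Hmgb1, a DNA-bending protein that also acts outside the cell as an alarm signal, had the same kind of copies. Its own level was 136, 231 and 150 CPM in the wt libraries at 0 h, 86.3, 121 and 263 CPM in KO#1 and 137, 234 and 144 CPM in the KO#2-labelled libraries, with the groups overlapping. At 24 h it had 755, 601 and 358 CPM in wt, 584, 424 and 204 CPM in KO#1 and 224, 345 and 472 CPM in the KO#2-labelled libraries, which overlapped as well. None of the 4 differences passed the test, with 95% intervals from -1.05 to 0.78 in KO#1 and -0.92 to 0.91 in the KO#2-labelled libraries at 0 h, and from -1.41 to 0.41 and -1.64 to 0.20 at 24 h. The pseudogene Gm21596 had 0 to 2 counts in wt at 0 h, 29 to 493 in KO#1 and 255 to 619 in the KO#2-labelled libraries. At 24 h it had 33 to 45, 292 to 717 and 448 to 1037 counts, a log2 difference of 3.60 ± 0.60 in KO#1 (adjusted p = 0.000616, edgeR) and 3.61 ± 0.60 in the KO#2-labelled libraries (adjusted p = 0.000212, edgeR). Gm15387, with the same base at position 21, was higher in all 4 comparisons too, by 3.26 to 4.11 on the log2 scale (adjusted p = 9.21e-05 to 0.000284, edgeR). The 30 copies together held 1.43% to 3.94% of the summed counts in wt libraries and 14.8% to 26.2% in KO libraries. With these counts added, the Hmgb1 difference at 0 h turned from -0.13 to 0.17 in KO#1, and it moved from -0.007 to 0.24 in the KO#2-labelled libraries, and none of the 4 summed differences passed the test (adjusted p = 0.406 to 0.862, edgeR). Hmgb1 also overlaps Uspl1 and 6 other annotated genes, and the use of strand in the counting is not given in the sources used here.

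Of the 14 genes with a near-identical match to a member that passed the filter on low counts, the pattern was not the same for all. Gm7862, a copy of Hmgn1, had 0.765 ± 0.190 CPM in wt and 0.351 ± 0.203 in KO#1 at 0 h, a difference that did not pass the test (adjusted p = 0.529, edgeR). In the KO#2-labelled libraries it had 2.19 ± 0.867 CPM at 0 h and 5.03 ± 1.06 at 24 h, higher than wt by 1.60 ± 0.53 and 1.76 ± 0.46 on the log2 scale (adjusted p = 0.0262 and 0.00623, edgeR). The copies of Hmgn1 held at most 0.512% of the summed counts in wt and KO#1 libraries and 1.37% to 2.29% in the KO#2-labelled libraries. For Hmgb2 the copies held at most 1.82% in any library.

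Hmgn1, which like Hmgn2 binds the nucleosome core, had 191, 250.3 and 193 CPM in the wt libraries at 0 h, 141, 174 and 290.4 CPM in KO#1 and 105, 168 and 154 CPM in the KO#2-labelled libraries. After 24 h it had 657, 534 and 521 CPM in wt, 469, 403 and 379 CPM in KO#1 and 263, 323 and 420.5 CPM in the KO#2-labelled libraries, with every KO library below every wt library, a pattern that 29.1% (KO#1) and 52.1% (KO#2) of all genes shared in either direction. The difference in the KO#2-labelled libraries at 24 h, -0.77 ± 0.28 on the log2 scale, passed the test (adjusted p = 0.0387, edgeR). With Hmgn2 this made 2 of 7 members called lower there, against 16.0% of all genes tested. The Hmgn1 call stood in 6 of 15 alternatives. It was lost when any library of wt, or replicate 1 or 2 of KO#2, was left out (adjusted p = 0.0696 to 0.158, edgeR), and with library sizes alone as the scaling its log2 fold change became 0.27. In KO#1 the Hmgn1 difference was -0.07 at 0 h and -0.45 at 24 h, with 95% intervals of -0.66 to 0.52 and -1.04 to 0.13.

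Hmgb2, an HMG-box protein of dividing cells, had 204, 245 and 163 CPM in wt at 0 h, 182, 359 and 376 CPM in KO#1 and 153, 226 and 178 CPM in the KO#2-labelled libraries. After 24 h it had 594, 579 and 288 CPM in wt, 978, 746 and 355 CPM in KO#1 and 265, 290 and 327 CPM in the KO#2-labelled libraries. The KO and wt libraries overlapped in all 4 comparisons, and none passed the test. Of these differences the one farthest from 0 was -0.73 in the KO#2-labelled libraries at 24 h, with a 95% interval of -1.49 to 0.03 (adjusted p = 0.119, edgeR). Hmgb3, an X-linked member of the same family, had 14.7 to 17.7 CPM in wt at 0 h, 10.8 to 46.8 in KO#1 and 14.1 to 26.4 in the KO#2-labelled libraries. Its level at 24 h was 14.9 to 19.0, 14.7 to 16.6 and 8.52 to 20.2 CPM. Its differences from wt ran from -0.10 to 0.53 on the log2 scale, all with intervals that hold 0.

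Hmgn3 and Hmgn5 were close to the limit of detection in these cells. Hmgn3, a member of the nucleosome-binding family known from endocrine and neural tissue, had 2 to 3 counts in the wt libraries at 0 h, 0 to 21 in KO#1 and 14 to 33 in the KO#2-labelled libraries. The KO#1 library with 0 counts allows a level of up to 0.391 CPM at 3 counts. Hmgn3 did not pass the test against wt (adjusted p = 0.124 to 0.882, edgeR), and its widest interval ran from -0.86 to 2.78. Under scaling by library sizes alone it was called higher in the KO#2-labelled libraries, by 2.02 at 0 h (adjusted p = 0.0468, edgeR) and 1.62 at 24 h (0.0349). Hmgn5, an X-linked member with a long acidic tail, had 0, 1.19 and 0.917 CPM in wt at 0 h and 3.41, 4.45 and 1.68 CPM in the KO#2-labelled libraries, which lay above all wt libraries. Together with Hmgn1, Hmgn2 and Hmgn3, this made 4 of 7 members whose groups did not overlap at 0 h with KO#2, against 52.9% of all genes. The wt library with 0 counts allows up to 0.984 CPM. The difference, 1.90 ± 0.74 on the log2 scale, just missed the threshold (adjusted p = 0.0501, edgeR), passed it when the single near-identical copy was added (adjusted p = 0.0493, edgeR) passed with the DESeq2 Wald test (adjusted p = 0.0306) and passed without KO#2 replicate 3 (2.21, adjusted p = 0.041, edgeR). In KO#1 at 24 h Hmgn5 had 1.32, 0.307 and 0.124 CPM against 2.82, 2.10 and 0.741 in wt, a difference of -1.67 ± 0.75 that did not pass (adjusted p = 0.191, edgeR) but did without KO#1 replicate 1 (-3.14, adjusted p = 0.04, edgeR).

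**Figure D3:**
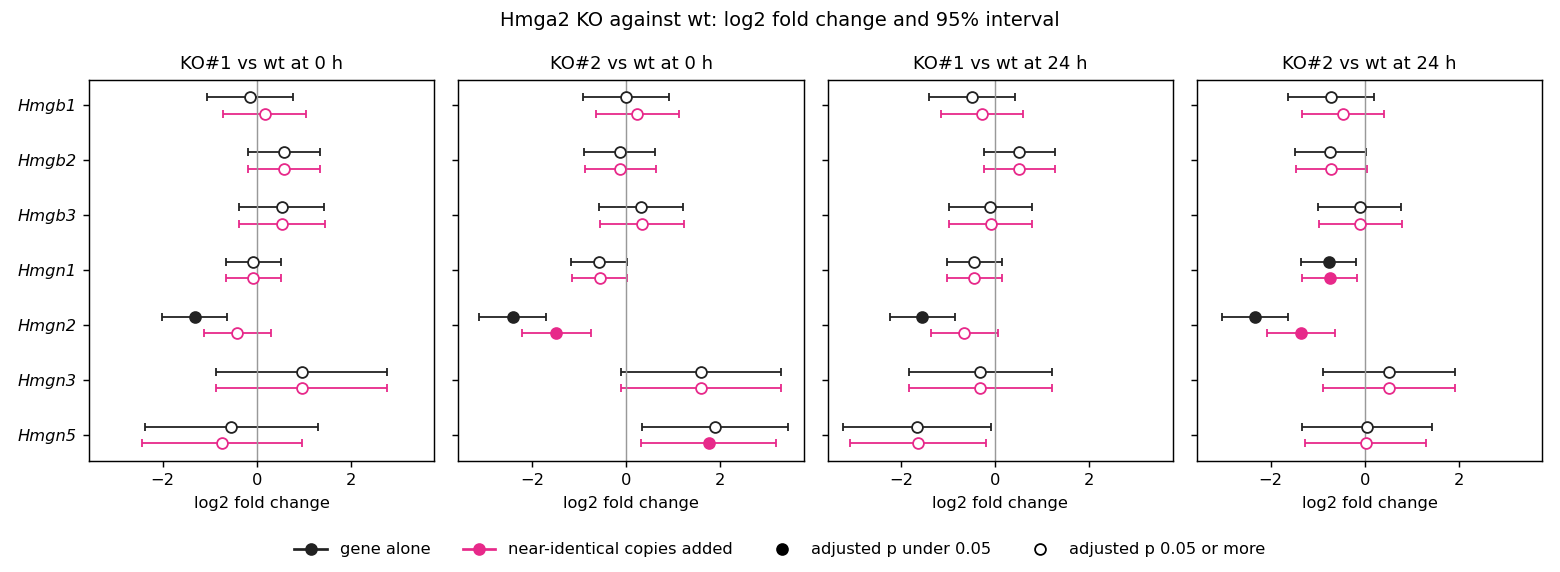
Log2 fold change of each member between a KO clone and wt, with its 95% interval, at 0 h and 24 h (horizontal axis), for the gene alone in black and with its near-identical copies added in pink. Filled points had an adjusted p under 0.05; Hmgn2 is the one member filled in black in all 4 comparisons, and its pink points are filled for KO#2 and open for KO#1.

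Hmga1, the other member of the family of the targeted gene, was lower than wt in all 4 KO comparisons, from -1.88 ± 0.38 in KO#1 at 0 h (adjusted p = 0.00415, edgeR) to -3.41 ± 0.40 in the KO#2-labelled libraries at 0 h (adjusted p = 1.42e-05, edgeR).

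The abundant members were higher after induction into EpiLCs. In wt, Hmgb1, Hmgb2, Hmgn1 and Hmgn2 were all higher at 24 h than at 0 h, with no overlap between the libraries of both times, which held for 57.9% of all genes, so that 4 of 7 members were called higher against 26.0% of all genes tested. Hmgb1 rose 3.31-fold (1.73 ± 0.45 on the log2 scale, adjusted p = 0.00403, edgeR) and Hmgn2 2.87-fold (1.52 ± 0.33, adjusted p = 0.00105, edgeR). Hmgn1 rose 2.70-fold (1.43 ± 0.28, adjusted p = 0.000567, edgeR) and Hmgb2 2.39-fold (1.26 ± 0.36, adjusted p = 0.00858, edgeR). Hmgb3 stayed at 16.5 ± 1.62 CPM at 0 h and 16.5 ± 2.20 CPM at 24 h, a log2 difference with a 95% interval of -0.90 to 0.91. In KO#1 the same 4 members were called, 4 of 7 against 20.1% of all genes, by 1.36 ± 0.44 for Hmgb1, 1.18 ± 0.36 for Hmgb2, 1.05 ± 0.28 for Hmgn1 and 1.29 ± 0.33 for Hmgn2 (adjusted p = 0.00489 to 0.0207, edgeR). The KO#1 libraries of both times overlapped for Hmgb1 and Hmgb2. With library sizes alone as the scaling, the median over all genes moved from 0.03 to -0.58 in wt and from 0.00 to -0.78 in KO#1. In wt Hmgb1 (1.06) and Hmgn2 (0.92) then kept their calls, and Hmgb2 (0.59, adjusted p = 0.174, edgeR) and Hmgn1 (0.81, 0.0601) lost theirs. In KO#1 all 4 lost their calls (0.23 to 0.48, adjusted p = 0.307 to 0.611, edgeR), and Hmgb3 was called lower (-1.44, 0.0113). The Hmgb1 call in KO#1 was lost without replicate 1 or 2 at either time (adjusted p = 0.0547 to 0.118, edgeR), and the Hmgb2 call without replicate 1 at 0 h or at 24 h (0.0867 and 0.102). With only the compared groups in the model, Hmgb2 in KO#1 was not called either (1.25, adjusted p = 0.05, edgeR). In the KO#2-labelled libraries, Hmgn1 and Hmgn2 were called, 2 of 7 against 12.7%, by 1.24 ± 0.28 and 1.61 ± 0.33 (adjusted p = 0.00372 and 0.00171, edgeR). There Hmgb1 differed by 1.02 ± 0.44 (adjusted p = 0.0957, edgeR) and Hmgb2 by 0.66 ± 0.36 (adjusted p = 0.19, edgeR), which did not pass.

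**Figure D4:**
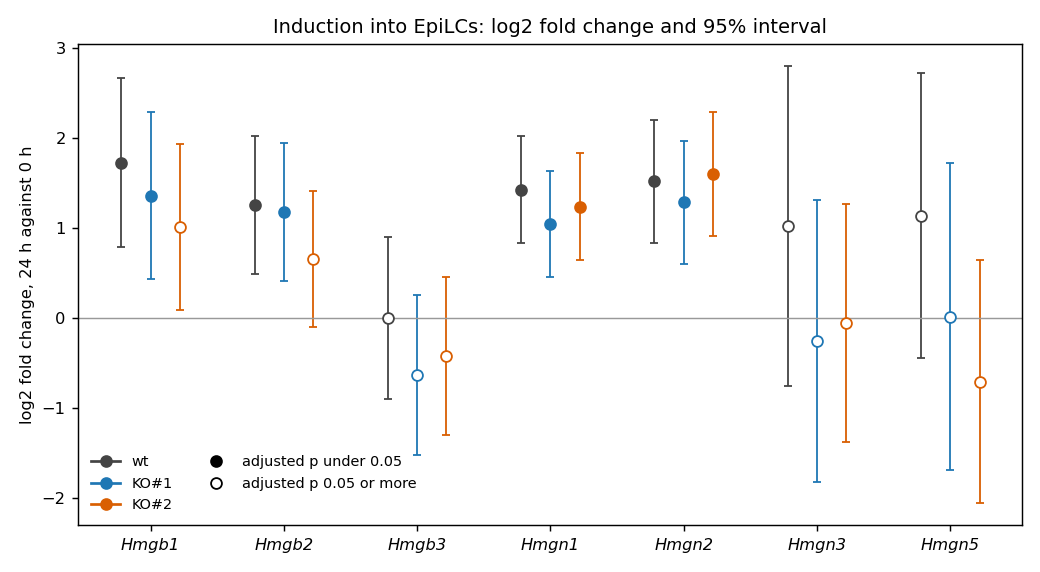
Log2 fold change from 0 h to 24 h of each member in wt, KO#1 and KO#2 (vertical axis), with its 95% interval. Filled points had an adjusted p under 0.05; Hmgn1 and Hmgn2 are filled in all 3 lines, by 1.05 to 1.61.

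The rise itself was not found to differ between lines. The test of the difference in response between a KO clone and wt called 0 of 7 members for either clone by edgeR, 0 at an unadjusted p under 0.05 and 0 with the DESeq2 Wald test, where edgeR called 0.391% of all genes for KO#1 and 1.47% for KO#2. For Hmgn2 the response differed by -0.23 in KO#1, with a 95% interval of -1.18 to 0.72, and by 0.08 in the KO#2-labelled libraries, with an interval of -0.86 to 1.03. Intervals of this width do not show that the responses were equal.

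The KO clones were also compared with each other, since both are set against the same wt libraries in every value above. At 0 h Hmgn2 was lower in the KO#2-labelled libraries than in KO#1, with a log2 fold change of -1.09 ± 0.33 (adjusted p = 0.0205, edgeR), and Hmgn5 was higher by 2.44 ± 0.79 (adjusted p = 0.03, edgeR), 2 of 7 members against 26.4% of all genes called in either direction, with no overlap of libraries for 41.8% of all genes. At 24 h Hmgb2 was lower in the KO#2-labelled libraries, 265 to 327 CPM against 355 to 978 CPM, with -1.24 ± 0.36 (adjusted p = 0.0137, edgeR), 1 of 7 against 35.4%, with no overlap for 47.3% of all genes. The Hmgn2 call was lost without KO#1 replicate 3 (-0.47, adjusted p = 0.213, edgeR) or KO#2 replicate 1 (-0.94, 0.0919), and the Hmgb2 call without KO#1 replicate 1 (-0.94, 0.0707) or KO#2 replicate 1 (-1.17, 0.0521). With library sizes alone the Hmgb2 value fell to -0.07 (adjusted p = 0.871, edgeR) and the Hmgn2 value at 0 h was -0.79 (0.138), so both calls were lost. The Hmgn5 call was lost without KO#1 replicate 1 or 3 or KO#2 replicate 1 or 2 (adjusted p = 0.0687 to 0.121, edgeR). Between the clones at 24 h, Hmgn2 was called lower in 4 of 15 alternatives and Hmgn5 higher in 4 of 14. Each of these included the fit with the replicate number as a block.

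Since 4 members rose together on induction, the 250 bases before their RefSeq transcription start were searched, in windows for GRCm38.p6, which held 6 of the 7 genes. The letters CCAAT, a box known from promoters of cell cycle genes, occurred on either strand in at least 1 window of 5 of these 6 genes, and in 33.8% of all 32851 promoters of this length. GGGCGG, the core of the GC box, also occurred in 5 of 6, against 32.7% of all promoters. TTTGAA, the letters of the cell cycle homology region, occurred in 2 of 6, Hmgb2 and Hmgb3, against 16.0%. CCAAT was found 4 times for Hmgb2, 2 times for Hmgn1 and 0 times for Hmgn2, and for Hmgb1 it was found 0 times in 1 window and 3 times in the other, while Hmgb3 and Hmgn5, which were not called on induction, held it 3 and 2 times. Such matches describe letters and not binding. The Hmgn2 window and both Hmgb1 windows lie inside the genes as GENCODE M21 annotates them, with the Hmgn2 gene reaching chr4:133968650. Their counts, with 0 for Hmgn2, hold for the RefSeq starts alone. The windows of Hmgb2 (chr8:57511593-57511842, plus strand), Hmgn1 (chr16:96127726-96127975, minus strand) and Hmgn2 (chr4:133967992-133968241, minus strand) are printed with CCAAT in capitals, because these are the members called higher on induction that have a single window, and their windows differ in the number of matches:
Hmgb2: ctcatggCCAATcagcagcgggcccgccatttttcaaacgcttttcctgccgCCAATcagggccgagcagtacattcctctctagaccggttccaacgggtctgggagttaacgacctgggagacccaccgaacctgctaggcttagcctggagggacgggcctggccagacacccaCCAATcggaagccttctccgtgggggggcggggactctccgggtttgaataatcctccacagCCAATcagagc
Hmgn1: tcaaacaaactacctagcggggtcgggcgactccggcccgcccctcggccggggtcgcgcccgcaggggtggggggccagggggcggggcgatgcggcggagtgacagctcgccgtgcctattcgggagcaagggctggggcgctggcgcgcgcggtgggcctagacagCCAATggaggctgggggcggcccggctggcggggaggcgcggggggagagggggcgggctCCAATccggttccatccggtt
Hmgn2: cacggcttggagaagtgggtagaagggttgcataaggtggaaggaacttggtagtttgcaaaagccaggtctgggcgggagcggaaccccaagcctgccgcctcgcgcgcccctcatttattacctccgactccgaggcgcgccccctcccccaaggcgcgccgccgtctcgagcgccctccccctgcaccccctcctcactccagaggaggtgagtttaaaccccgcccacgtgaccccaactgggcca

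Genes that act with these proteins were counted from lists chosen with earlier results known. Of 8 linker histone genes, which compete with Hmgn proteins for nucleosomes, 7 were tested, and 6 were lower in the KO#2-labelled libraries at 0 h and 5 at 24 h, with medians of -1.25 and -1.30 against 0.10 and 0.20 over all genes tested. Hist1h1b (-2.07 ± 0.36, adjusted p = 0.000273, edgeR) and Hist1h1c (-2.03 ± 0.42, adjusted p = 0.00123, edgeR) had the largest differences at 24 h. In KO#1, 0 of 7 passed at either time by edgeR, where the share of all genes called lower was 2.68% and then 3.61%, against 16.6% and then 16.0% for KO#2. The KO#2-labelled libraries also had the higher feeder fibroblast marker levels given above, and the part of these in the list values was not tested. With library sizes alone as the scaling, 1 linker histone was lower at 0 h, and 2 were lower and 1 higher at 24 h. Of 14 partner and modifier genes, 0 passed in KO#1 at either time, and in the KO#2-labelled libraries 4 were higher and 2 lower at 0 h, among them Trp53 (-1.37 ± 0.26) and Rps6ka5 (1.35 ± 0.26), and 4 were higher and 3 lower at 24 h, among them Apex1 (-1.50 ± 0.40), whose protein repairs DNA, and Ep300 (1.46 ± 0.52), an acetyltransferase. Of 18 other HMG-box genes 15 were tested, with 0 called in KO#1 and, in the KO#2-labelled libraries, 4 higher and 3 lower at 0 h and 2 higher and 1 lower at 24 h, among them Bbx, which was higher at 0 h (2.47 ± 0.31) and at 24 h (1.63 ± 0.29). Tox3 was called lower at 24 h, from a mean of 0.42 CPM in wt to 0 counts in the KO#2-labelled libraries, so that no fold is given. These counts are to be read against 21.5% of all genes called higher and 16.6% lower with KO#2 at 0 h, and 21.3% and 16.0% at 24 h, and the counts in KO#1 against 3.99% higher and 2.68% lower at 0 h, and 6.25% and 3.61% at 24 h. With library sizes alone, 8 partner genes and 10 HMG-box genes were higher and 0 and 1 lower with KO#2 at 24 h. Of 8 genes for receptors and partners of Hmgb1 outside the cell 5 were tested, and Tlr2 was higher in KO#1 at 0 h (1.25 ± 0.36) and at 24 h (1.08 ± 0.33), with Cxcl12 lower at 24 h (-2.34 ± 0.62). In the KO#2-labelled libraries Tlr2 (1.58 ± 0.35) and Tlr4 (3.75 ± 0.90) were higher at 0 h and 0 genes passed at 24 h. Scaled by library sizes alone, 0 receptor genes were higher in KO#1 at either time, and 3 were higher with KO#2 at 24 h.

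Of 24 cell cycle genes, listed because Hmgb2 and Hmgn2 are known from dividing cells, 16 were higher at 24 h than at 0 h in wt, 16 in KO#1 and 6 in the KO#2-labelled libraries, with medians of 0.93, 0.83 and 0.61 against 0.03, 0.00 and -0.03 over all genes, of which 26.0%, 20.1% and 12.7% were called higher. Ccnb1, a mitotic cyclin, rose by 1.97 ± 0.41 in wt and by 1.46 ± 0.40 in KO#1. The counts fell to 2, 0 and 0 with library sizes alone, and 1 gene was then lower in KO#1. Against wt, 0 of 24 passed the test by edgeR in KO#1 at either time, where 3.99% of all genes were called higher and 2.68% lower at 0 h, and 6.25% and 3.61% at 24 h. Of the same 24 genes, 6 were higher and 3 lower in the KO#2-labelled libraries at 0 h, against 21.5% and 16.6% of all genes, and 9 were lower at 24 h, against 16.0% (with library sizes alone, 8 higher and 0 lower), of which Gins2 (-1.33 ± 0.32) and Cenpa (-1.20 ± 0.20) differed most.

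The genes whose pattern over the 6 groups was most like each member were found by the smallest root mean square difference between group means of log2 CPM, each centred on its own mean, among genes with a mean log2 CPM of at least 5, a level that Hmgb3, Hmgn3 and Hmgn5 themselves did not reach. They were Hirip3 (0.14) and Elp3 (0.15) for Hmgb1, Smim7 (0.09) and Nudt21 (0.09) for Hmgb2, and Isy1 (0.08) and Ptma (0.09) for Hmgn1. For the scarce members they were Tmem209 (0.07) and Hdac6 (0.08) for Hmgb3, Opa1 (0.07) and N4bp2l2 (0.07) for Hmgn3, and Thoc2 (0.37) and Rlim (0.37) for Hmgn5. For Hmgn2 they were Rnps1 (0.35) and Uchl1 (0.41). Among the members, Hmgb1 and Hmgn1 were closest, at 0.23, and Hmgn2 lay 0.73 or more from every other member.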

How the data were processed

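RNA sequencing of 18 libraries was analysed in 6 groups of 3, assigned from the sample titles. The authors deposited counts, whole numbers of reads per gene that are not normalized. Per the methods, stranded total RNA libraries were trimmed with Trim Galore, cleared of ribosomal sequence, aligned to GRCm38 with STAR and quantified with Salmon and StringTie, and lines were compared with DESeq2. The tool behind the deposited counts, its annotation release, its use of strand and its treatment of reads that match several genes are not given in the sources used here. Names and positions came from GENCODE M21, which held 45143 of 45706 identifiers, and promoters from RefSeq (GRCm38.p6).

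Here edgeR 4.0.16 (R 4.3.3) fitted 1 quasi-likelihood model of the 6 groups, with TMM scaling and filterByExpr at a minimum count of 10. P-values were adjusted by the Benjamini-Hochberg method over all 16619 genes tested, and a gene was called at an adjusted p under 0.05. SE is the absolute log2 fold change divided by the root of F. CPM uses TMM-scaled library sizes, log2 CPM a prior count of 2. Near-identical copies were found with blastn 2.17.0 on the plus strand of annotated transcripts. Their counts were added to the gene as an alternative chosen after seeing the data, as was a fit on protein-coding genes only. The other alternatives were DESeq2 size factors, library sizes alone, the DESeq2 1.42.0 Wald test, other filters, only the compared groups, the replicate number as a block and leaving out each library. On simulated counts with the means and library sizes of the real libraries the fit was tested before use. Counting error alone stands behind the floor of 3 counts. All 153 pairs of libraries were compared, and 0 had identical counts.

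The members, the related gene lists and the markers were chosen with earlier results of these data known. Named genes are all 7 members, Hmga1 and Hmga2, the 2 genes of each list with the largest change among those called, and the 2 genes most like each member. The copies and Malat1 were named after their values were seen.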

Additional observations from a re-analysis of the deposited data

Results flagged for a closer look

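The following differences were picked out because the KO clones differed from each other by a direct test, while both are compared with the same wt libraries. Hmgn2 was lower in the KO#2-labelled libraries than in KO#1 at 0 h, with a log2 fold change of -1.09 ± 0.33 (adjusted p = 0.0205, edgeR), in 3 of 3 libraries below the lowest KO#1 library. Hmgn5 was higher by 2.44 ± 0.79 at 0 h (adjusted p = 0.03, edgeR), again in 3 of 3 libraries. Hmgb2 was lower at 24 h, with -1.24 ± 0.36 (adjusted p = 0.0137, edgeR), in 3 of 3 libraries. Of all genes, 41.8% had no overlap between these groups at 0 h and 47.3% at 24 h. With library sizes alone the Hmgb2 value was -0.07 (adjusted p = 0.871, edgeR) and the Hmgn2 value -0.79 (0.138), neither of them called, while Hmgn5 stayed called. Malat1 at 0 h stood at 7155 to 9434 CPM in the KO#2-labelled libraries and at 808 to 1348 CPM in KO#1, and the part of such library differences in these 3 results was not tested.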

How the results depend on the processing

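The Hmgn2 difference in the KO#2-labelled libraries kept its direction and its call in all 15 alternatives at 0 h (-2.55 to -1.49) and at 24 h (-2.62 to -1.31), and in KO#1 it kept its direction in all 15 at each time, with the call in 8 at 0 h and in 14 at 24 h. The KO#1 call at 24 h was lost with near-identical copies added (-0.66, adjusted p = 0.271, edgeR). Library sizes alone moved the median over all genes from 0.10 to 0.54 in the KO#2-labelled libraries against wt at 0 h and from 0.20 to 1.24 at 24 h, from 0.03 to -0.58 for induction in wt and from 0.00 to -0.78 in KO#1, and the share of higher calls moved from 59.8% to 71.3% for KO#1 against wt at 0 h, from 56.4% to 90.3% and from 57.1% to 94.8% for KO#2 against wt at 0 h and 24 h, from 51.3% to 21.4% and from 49.4% to 11.4% for induction in wt and KO#1, and from 57.3% to 90.6% and from 54.5% to 95.5% for KO#2 against KO#1 at 0 h and 24 h. Hmgn3 and Hmgn5 rest on at most 33 and 99 counts per library. Correlations of deviations between same-numbered libraries ran from -0.26 to 0.59 (mean 0.05, against -0.03 for different numbers), so not every pair was positive and the samples were not treated as paired, although 11 of 18 libraries were closest to their own number, a hint from the data and not from the design. For KO#2 against KO#1 at 24 h, leaving out a library also made calls on Hmgn5 (3.21, adjusted p = 0.0131, edgeR, without KO#1 replicate 1) and Hmgn2 (-1.07, 0.0289, without KO#2 replicate 3). The cause of the changes listed here was not tested.

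With library sizes alone, the members called numbered 0 for KO#1 against wt at 0 h, 3 for KO#2 against wt at 0 h, 2 for induction in wt (Hmgb1 and Hmgn2), 1 for induction in KO#1 (Hmgb3, lower), 1 for KO#2 against KO#1 at 0 h (Hmgn5) and 3 for KO#2 against KO#1 at 24 h (Hmgb3, Hmgn3 and Hmgn5, higher), and log2 values changed sign to Hmgb1 0.000 and Hmgn1 0.074 for KO#1 against wt at 0 h, Hmgb1 0.43 and Hmgb2 0.33 for KO#2 against wt at 0 h, Hmgb1 0.35, Hmgb2 0.37, Hmgb3 0.94, Hmgn1 0.27 and Hmga2 1.01 for KO#2 against wt at 24 h, Hmgb3 -0.61 for induction in wt, Hmgn5 -0.83 for induction in KO#1, Hmgb2 0.038, Hmgb3 0.15 and Hmgn1 0.39 for the response of KO#2, Hmgb3 0.096 for KO#2 against KO#1 at 0 h, Hmgb1 0.94, Hmgn1 0.77 and Hmgn2 0.30 for KO#2 against KO#1 at 24 h. With the DESeq2 Wald test, the members called numbered 2 for KO#2 against wt at 0 h and 2 for KO#2 against KO#1 at 24 h, and log2 values changed sign to Hmgb3 -0.017 for induction in wt, Hmgn5 -0.033 for induction in KO#1, Hmgb3 -0.002 for KO#2 against KO#1 at 24 h. With no filter on low counts, the members called numbered 2 for KO#2 against wt at 0 h, 2 for KO#1 against wt at 24 h, 1 for KO#2 against wt at 24 h and 2 for KO#2 against KO#1 at 24 h, and log2 values changed sign to Hmgb1 0.033 for KO#2 against wt at 0 h. With at least 10 counts required in every library, the members called numbered 1 for KO#2 against wt at 24 h and 1 for KO#2 against KO#1 at 0 h, and log2 values changed sign to Hmgb1 0.18 and Hmgb2 0.047 for KO#2 against wt at 0 h, Hmgb3 0.042 and Hmga2 0.11 for KO#2 against wt at 24 h, Hmgb3 -0.079 for induction in wt, Hmgb3 0.001 for KO#2 against KO#1 at 0 h. With only the compared groups in the model, the members called numbered 0 for KO#1 against wt at 0 h, 2 for KO#2 against wt at 0 h, 4 for induction in KO#2, 1 for KO#2 against KO#1 at 0 h and 2 for KO#2 against KO#1 at 24 h, and log2 values changed sign to Hmgb1 0.006 for KO#2 against wt at 0 h, Hmgn5 -0.044 for KO#2 against wt at 24 h, Hmgb3 -0.017 for induction in wt, Hmgb2 0.009 for the response of KO#1, Hmgb3 -0.064 for KO#2 against KO#1 at 24 h. With near-identical copies added, the members called numbered 0 for KO#1 against wt at 0 h, 2 for KO#2 against wt at 0 h and 0 for KO#1 against wt at 24 h, and log2 values changed sign to Hmgb1 0.17 for KO#1 against wt at 0 h, Hmgb1 0.24 for KO#2 against wt at 0 h. With protein-coding genes only, the members called numbered 2 for KO#2 against wt at 0 h and 1 for KO#2 against wt at 24 h, and log2 values changed sign to Hmgb1 0.020 for KO#2 against wt at 0 h, Hmgb3 0.002 and Hmga2 0.034 for KO#2 against wt at 24 h, Hmgb3 -0.025 for induction in wt. With DESeq2 size factors in edgeR the log2 values that changed sign were Hmgb3 -0.013 for induction in wt, Hmgb3 -0.001 for KO#2 against KO#1 at 24 h. With the replicate number as a block, 3 members, Hmgb2, Hmgn2 and Hmgn5, were called for KO#2 against KO#1 at 24 h, and log2 values changed sign to Hmgn5 -0.095 for induction in KO#1, Hmgb3 -0.040 for KO#2 against KO#1 at 24 h. Leaving out 1 library at a time, the number of members called ran from 0 to 1 for KO#1 against wt at 0 h, from 1 to 2 for KO#2 against wt at 0 h, from 1 to 2 for KO#1 against wt at 24 h, from 1 to 2 for KO#2 against wt at 24 h, from 2 to 4 for induction in KO#1, from 0 to 2 for KO#2 against KO#1 at 0 h, from 0 to 2 for KO#2 against KO#1 at 24 h, from 0 to 1 for other HMG-box genes called with 1 sign in both clones at 24 h. For KO#1 against wt at 0 h, leaving out single libraries gave Hmgb1 -0.74 to 0.16, Hmgn1 -0.43 to 0.14, Hmgb3 -0.50 to 0.88 and Hmgn3 -0.92 to 1.48. For KO#2 against wt at 0 h, leaving out single libraries gave Hmgb1 -0.29 to 0.27 and Hmgb2 -0.30 to 0.023. For KO#1 against wt at 24 h, leaving out single libraries gave Hmgb3 -0.13 to 0.028 and Hmgn3 -0.75 to 0.042. For KO#2 against wt at 24 h, leaving out single libraries gave Hmgb3 -0.35 to 0.19, Hmgn5 -0.32 to 0.49 and Hmga2 -0.82 to 0.27. For induction in wt, leaving out single libraries gave Hmgb3 -0.13 to 0.042. For induction in KO#1, leaving out single libraries gave Hmgn5 -1.51 to 0.86, Hmgb3 -0.97 to 0.41 and Hmgn3 -0.77 to 1.63. For induction in KO#2, leaving out single libraries gave Hmgn3 -0.27 to 0.34. For the response of KO#1, leaving out single libraries gave Hmgb2 -0.38 to 0.27, Hmgb1 -0.70 to 0.24, Hmgb3 -0.98 to 0.40, Hmgn2 -0.46 to 0.39 and Hmgn3 -1.80 to 0.60. For the response of KO#2, leaving out single libraries gave Hmgn2 -0.21 to 0.28. For KO#2 against KO#1 at 0 h, leaving out single libraries gave Hmgb1 -0.17 to 0.73 and Hmgb3 -0.55 to 0.83. For KO#2 against KO#1 at 24 h, leaving out single libraries gave Hmgb1 -0.56 to 0.12 and Hmgb3 -0.25 to 0.29.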
